A study of Oryctolagus cuniculus with 3 samples.

Results

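The collagen gene family was examined in RNA of cumulus-oocyte complexes, the egg cell with the somatic cells that surround it, from rabbits (Oryctolagus cuniculus) housed under ammonia. Members were the loci of the deposited gene table whose name has the form COL, a type number, A and a chain number. This gave 51 of 39681 loci, of which 41 carry a RefSeq messenger RNA and are called collagen genes here (of 20008 genes with such an RNA). The other 10 are assembled fragments that lie within collagen genes and bear the name of their host. COL4A5 was not matched, because the assembly merged it with LOC100338689, and no locus named COL18A1, COL20A1 or COL6A4 was matched.

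The study asked how ammonia in the air alters messenger and long non-coding RNA of the complex. The animals were female IRA rabbits, 150 over all groups, aged 35 days when exposure began and housed for 4 weeks in controlled rooms. The control group, CG, had less than 3 ppm of ammonia, the group LAC had 10 ppm and the group HAC had 30 ppm. With 1 library in each group, no difference reported here can be set against a spread between replicates. The number of animals behind a library is not stated in the labels. The labels give ovary as the source and cumulus-oocyte complexes as the material.

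Estimated counts summed to 68523767 in LAC and 78461882 in CG, and each count is worth some 0.5 reads. The gene table in the HAC file repeats that of the LAC file cell for cell and is headed LAC, so it was used once and as LAC. Its label is uncertain: its highest FPKM, 39492, is the value in the statistics block of the HAC file, whereas that of the LAC file shows 86394. Totals of valid reads disagree in the same way: the mapping block labelled LAC gives 72520954, which is the total in the HAC statistics block, and the mapping block labelled HAC gives 72141648, the total in the LAC statistics block. At 9 of 9 collagen intron loci the LAC coverage in the long non-coding table gave the count in the gene table to within 2 counts, and the HAC coverage did so at 0 of 9. Both tables therefore come from the same library at these loci, and every direction below assumes its label. Markers of granulosa and cumulus cells were present at similar summed levels, 16638 CPM in LAC and 16852 CPM in CG (CPM is a count relative to the scaled library size). GJA1, which encodes a gap junction protein, had 4814 CPM in LAC and 4933 CPM in CG, and VCAN, the gene of versican, had 2921 CPM in LAC and 2933 CPM in CG. All 16 oocyte markers were detected and all 16 were lower in LAC by the size rule given below, against 11.0% of coding genes. The oocyte markers summed to 939 CPM in LAC against 4742 CPM in CG. WEE2, an oocyte kinase gene, had 206 CPM in LAC and 1170 CPM in CG, and BMP15, an oocyte growth factor gene, had 345 CPM in LAC and 1771 CPM in CG. In such bulk RNA, fewer cells of a type and less RNA per cell cannot be told apart.

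Collagens are secreted proteins in which polypeptide chains are wound around one another into a rope-like helix. Fibrillar collagens such as types I, III, V and XI form the fibers of connective tissue, type IV forms the network of basement membranes, FACIT collagens (fibril-associated collagens with interrupted helices) sit on fibril surfaces, and type VI forms beaded filaments. In the ovary, a basal lamina rich in type IV collagen separates the granulosa cells from the theca, and fibrillar collagen lies mainly in the theca, the stroma and the capsule of the ovary.

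Of the fibrillar collagen genes measured, 5 of 9 were higher in LAC by the size rule, COL1A1, COL1A2, COL3A1, COL5A2 and COL11A1. The basement membrane genes summed to a 1.38-fold higher level with 0 of 5 past the rule. The lower genes were COL24A1, COL28A1, COL19A1, COL9A1 and COL6A5, from 4 classes. The oocyte markers were also lower in LAC, and the part of the oocyte in these differences was not tested. Summed over the 41 genes, collagen messenger RNA was at 1649 CPM in LAC and 1159 CPM in CG, a ratio of 1.42 (95% interval 1.41 to 1.44, for counting error only). It made up 0.163% of all counts in LAC and 0.117% in CG. Differences of single genes are LAC minus CG on log2(CPM + 1), a scale on which low genes appear less changed than their ratio shows, and a gene passed the size rule when it differed by at least 1 and had at least 10 counts in the higher library. Of 36 genes with at least 10 counts, 5 were higher in LAC, or 13.9%, against 1.89% of 15009 coding genes tested alike, and 5 were lower, or 13.9%, against 11.0% of them. The share of higher genes thus lay above the background of coding genes, and the share of lower genes lay near it. The median difference was 0.11 over the collagen genes, -0.14 over 15009 coding genes and 0.01 over all loci. Scaling on coding genes alone adds 0.18 to every log2 ratio and shifts the coding median by 0.14.

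**Figure D1:**
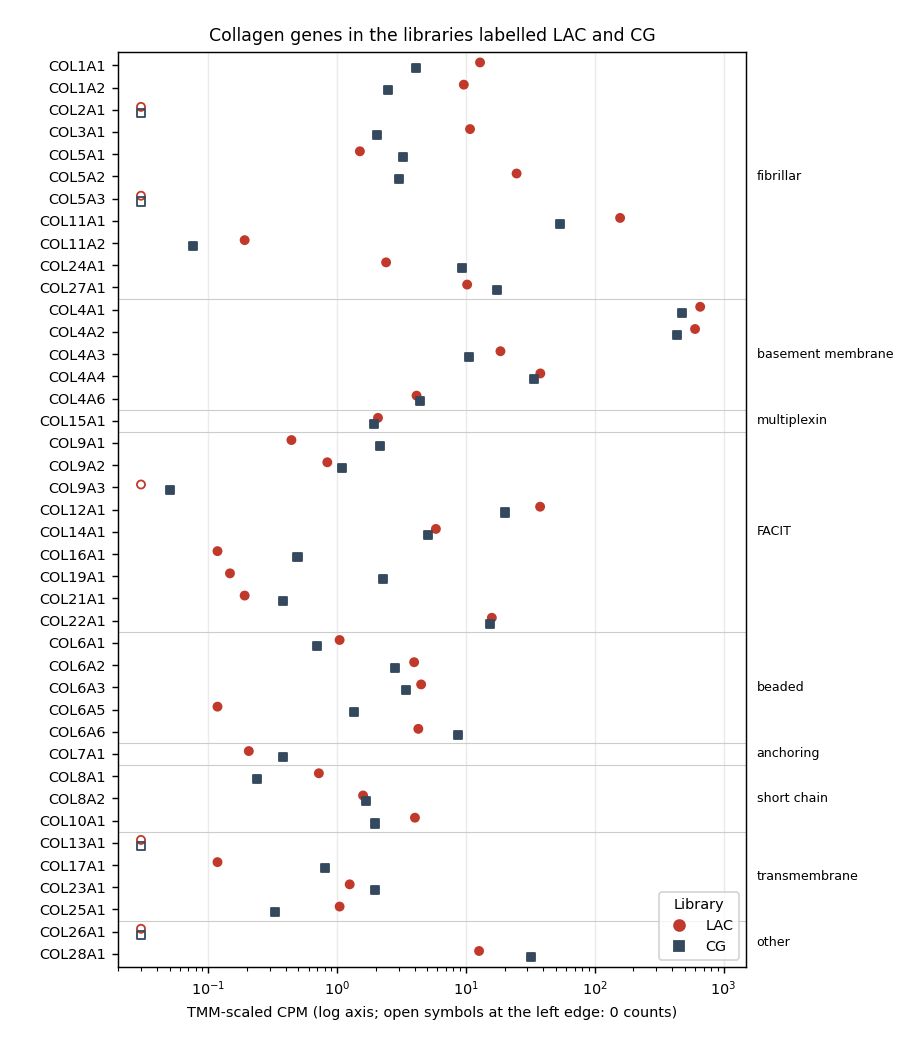
Level of each of the 41 collagen genes in LAC (circles) and CG (squares), 1 library each, in TMM-scaled CPM on a log axis, grouped by collagen class. Open symbols at the left edge mark 0 counts. COL4A1 and COL4A2 lie far to the right of the other genes, and 5 of the fibrillar genes have the LAC circle well to the right of the CG square.

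Levels spanned a wide range. COL4A1, COL4A2 and COL11A1 reached 100 CPM or more, while 25 genes stayed under 5 CPM in both libraries. COL4A1 and COL4A2 alone made up 76.4% of collagen counts in LAC and 78.5% in CG. Without them the other 39 genes summed to 389 CPM in LAC and 249 CPM in CG, a ratio of 1.56 (1.52 to 1.60). CPM is not corrected for transcript length, so a higher CPM in a gene than in another does not show more molecules.

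The fibrillar class held all 5 genes that passed the size rule as higher. In the same library 3 of 9 stromal fibroblast and theca markers were higher, against 1.89% of coding genes, and 6 stayed within the rule, with a median of 0.26. These markers summed to 243 CPM in LAC against 152 CPM in CG. Most of that difference lay in POSTN (59.5 CPM in LAC, 9.99 CPM in CG) and DCN (31.1 CPM in LAC, 4.46 CPM in CG). OGN, the most abundant of them, had 106 CPM in LAC and 98.6 CPM in CG. The part of these markers in the collagen values was not tested. Of the 11 fibrillar genes 9 had enough counts, 5 were higher and 1 was lower. Their median difference was 1.44, and they had a summed level of 230 CPM in LAC against 95.1 CPM in CG, a ratio of 2.42 (2.32 to 2.51). COL1A1 and COL1A2 encode the chains of type I collagen, the main collagen of stroma. COL1A1 had 12.9 CPM in LAC and 4.10 CPM in CG, 3.14-fold higher (2.62 to 3.79). COL1A2 had 9.63 CPM in LAC and 2.50 CPM in CG, 3.85-fold higher (3.07 to 4.87). Both chains were thus higher by a like factor, and neither passed the same rule with the authors' FPKM values (reads scaled by transcript length and depth) or with a pseudocount of 5 CPM.

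COL3A1 encodes the chain of type III collagen, which is laid down with type I in extensible tissue. It had 10.8 CPM in LAC and 2.03 CPM in CG, 5.29-fold higher (4.18 to 6.88). COL5A2 encodes a chain of type V collagen, which lies within type I fibrils and limits their diameter. It had 24.7 CPM in LAC and 3.03 CPM in CG, 8.16-fold higher (6.73 to 9.97), and its difference, 2.67, was the largest on log2(CPM + 1). By ratio, COL19A1 and COL6A5 differed more, in the lower direction. COL3A1 (NC_013675.1, 129298041 to 129341606, plus strand, build OryCun2.0) and COL5A2 (NC_013675.1, 129358210 to 129503927, minus strand) lie tail to tail, 16603 bases apart.

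COL11A1 was the most abundant fibrillar gene. It encodes a chain of type XI collagen, known from the thin fibrils of cartilage, and had 157 CPM in LAC and 53.4 CPM in CG, 2.95-fold higher (2.81 to 3.10). COL11A2, its partner chain, was near the limit of detection at 0.191 CPM in LAC and 0.0758 CPM in CG, and the interval of its ratio, 0.498 to 14.4, includes 1. COL2A1, whose chain is the main collagen of cartilage, was at 0 counts in both libraries, as was COL5A3, the gene of another type V chain. A count of 0 allows up to 0.0884 CPM in LAC and 0.0758 CPM in CG.

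Other fibrillar genes were lower in LAC. COL24A1, which encodes a fibrillar collagen described in mouse developing bone and cornea, was the lower gene past the size rule, with 2.40 CPM in LAC and 9.30 CPM in CG, 3.87-fold lower (3.02 to 4.95), and it did not pass with a pseudocount of 5 CPM. COL27A1, a fibrillar collagen gene known from cartilage, had 10.2 CPM in LAC and 17.5 CPM in CG, a difference of -0.72. COL5A1, which encodes the partner of the COL5A2 chain, had 1.50 CPM in LAC and 3.23 CPM in CG, a difference of -0.76. Neither passed the size rule, although the intervals of both ratios lie below 1. The COL5A1 locus covers a short stretch of a small scaffold (NW_003160288.1, 28521 to 48879), and whether it holds the whole gene was not tested.

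**Figure D2:**
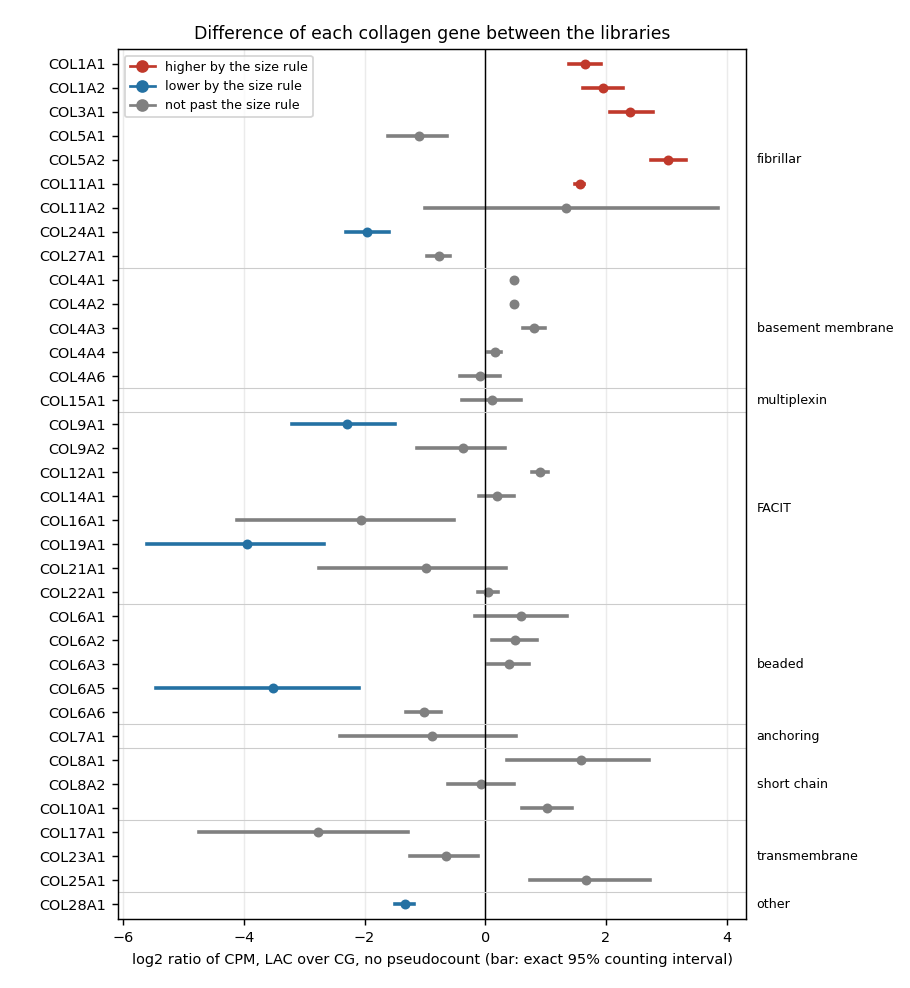
Log2 ratio of CPM in LAC over CG for the 36 collagen genes with at least 10 counts, without a pseudocount, grouped by class; bars are exact 95% intervals for counting error. The 5 red points to the right (higher by the size rule) are all fibrillar genes, and the 5 blue points to the left (lower) lie in the fibrillar, FACIT, beaded and other classes.

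In the basement membrane class the genes differed less, and none passed the size rule. The 5 genes matched summed to 1321 CPM in LAC and 958 CPM in CG, a ratio of 1.38 (1.36 to 1.40), with a median difference of 0.47. COL4A1 and COL4A2 encode the chains of the type IV network present in nearly all basement membranes. COL4A1 had 659 CPM in LAC and 476 CPM in CG, 1.38-fold higher (1.36 to 1.41). COL4A2 had 601 CPM in LAC and 433 CPM in CG, 1.39-fold higher (1.36 to 1.42). These loci lie head to head on NC_013676.1 (COL4A1, 111524909 to 111654797, minus strand; COL4A2, 111654828 to 111791972, plus strand), with 30 bases between them, and their differences were both 0.47.

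COL4A3 and COL4A4 encode chains of the type IV network known from the kidney glomerulus. COL4A3 had 18.5 CPM in LAC and 10.6 CPM in CG, a difference of 0.75. COL4A4 had 37.8 CPM in LAC and 33.9 CPM in CG, a difference of 0.15. They also lie head to head, 77875 bases apart on NC_013675.1, but differed unequally. COL4A6, whose chain is found in basement membranes of smooth muscle and epithelium, had 4.14 CPM in LAC and 4.38 CPM in CG. COL15A1, which encodes the multiplexin type XV collagen of basement membrane zones, had 2.08 CPM in LAC and 1.93 CPM in CG, and both intervals include 1.

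The FACIT class was split. Of 9 genes 8 had enough counts, 0 were higher and 2 were lower, against 1.89% of coding genes higher and 11.0% lower. With 8 genes, these counts are too few to read against that background. The class had a median difference of -0.20, while its summed level was higher, 61.1 CPM in LAC against 47.1 CPM in CG (ratio 1.30, 1.22 to 1.38). The sum follows COL12A1, the most abundant, which encodes a collagen that decorates type I fibrils. It had 37.7 CPM in LAC and 20.1 CPM in CG, a difference of 0.87, and of the scalings tried it passed the size rule only with factors from coding genes. The lower pair were COL19A1, a gene of a rare FACIT collagen of basement membrane zones, and COL9A1, a chain of the type IX collagen that coats cartilage fibrils. COL19A1 had 0.147 CPM in LAC and 2.27 CPM in CG, 15.4-fold lower (6.38 to 48.7). COL9A1 had 0.442 CPM in LAC and 2.16 CPM in CG, 4.89-fold lower (2.82 to 9.17). Neither passed the rule with the authors' FPKM or with a pseudocount of 5 CPM. These genes are neighbours, tail to tail on NC_013680.1 (COL19A1, 56480466 to 56874703, plus strand; COL9A1, 56889129 to 56995695, minus strand) and 14425 bases apart. COL22A1, a collagen gene of tissue junctions, had 15.9 CPM in LAC and 15.4 CPM in CG. COL14A1, a gene of another fibril-associated collagen, had 5.85 CPM in LAC and 5.12 CPM in CG. The other FACIT genes were near or under 1 CPM. COL9A2 had 0.839 CPM in LAC and 1.09 CPM in CG, COL16A1 had 0.118 CPM in LAC and 0.493 CPM in CG, and COL21A1 had 0.191 CPM in LAC and 0.379 CPM in CG. COL9A3 had 0 counts in LAC and 4 in CG.

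The type VI genes of the beaded class also went both ways. COL6A1, COL6A2 and COL6A3 encode the classical chains of type VI collagen, which links cells to the matrix around them. COL6A1 had 1.05 CPM in LAC and 0.695 CPM in CG, COL6A2 had 3.96 CPM in LAC and 2.83 CPM in CG, and COL6A3 had 4.49 CPM in LAC and 3.42 CPM in CG. All of them were below the size rule, with differences from 0.27 to 0.37. COL6A5 and COL6A6 encode chains that can take the place of the COL6A3 chain. COL6A5 had 0.118 CPM in LAC and 1.35 CPM in CG, 11.5-fold lower (4.27 to 44.0), and passed the size rule, though not with the authors' FPKM or a pseudocount of 5 CPM. COL6A6 had 4.27 CPM in LAC and 8.63 CPM in CG, 2.02-fold lower (1.66 to 2.47), with a difference of -0.87 that did not pass it. They are neighbours on the minus strand of NC_013682.1, 29488 bases apart. The class had a median difference of 0.27 but a lower sum, 13.9 CPM in LAC against 16.9 CPM in CG (ratio 0.82, 0.729 to 0.925).

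Among the remaining classes COL28A1, which encodes a collagen with von Willebrand factor domains known from mouse peripheral nerve, was the gene past the size rule. It had 12.6 CPM in LAC and 31.9 CPM in CG, 2.53-fold lower (2.26 to 2.82). The short chain genes summed to 6.33 CPM in LAC and 3.90 CPM in CG. Among them COL10A1, known from hypertrophic cartilage, had 4.02 CPM in LAC and 1.98 CPM in CG, 2.03-fold higher (1.53 to 2.72), a difference of 0.75. COL8A1 and COL8A2 encode the chains of type VIII collagen, known from vessel walls and the corneal basement membrane. COL8A1 had 0.722 CPM in LAC and 0.240 CPM in CG, and COL8A2 had 1.59 CPM in LAC and 1.68 CPM in CG.

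The transmembrane collagens, anchored in the cell surface, were low throughout. COL25A1 had 1.05 CPM in LAC and 0.328 CPM in CG, 3.18-fold higher (1.67 to 6.63). COL23A1 had 1.25 CPM in LAC and 1.97 CPM in CG, and COL17A1, a gene of epithelial hemidesmosomes, had 0.118 CPM in LAC and 0.808 CPM in CG. COL13A1 and COL26A1 were at 0 counts in both libraries, and COL7A1, the gene of the anchoring fibrils of skin, had 0.206 CPM in LAC and 0.379 CPM in CG. A gene this low can differ several-fold in ratio without passing a rule set on log2(CPM + 1). In all, 20 of the 36 genes lay above 0 and 16 below, where 38.1% of 15009 coding genes and 50.9% of all loci lay above 0. The interval of the ratio excluded 1 for 26, of which 15 were above 1 and 11 below. The like share over coding genes was not computed, so these 26 are not read as a trait of the collagen genes.

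Chains that assemble into the same collagen can be compared within a library, where the scaling cancels. The count ratio of COL4A1 to COL4A2 was 1.10 in LAC and 1.10 in CG, a shift of 0.997 (0.970 to 1.03). The count ratio of COL1A1 to COL1A2 was 1.34 in LAC and 1.64 in CG, a shift of 0.814 (0.605 to 1.10). These intervals include 1. So do those of COL6A1 to COL6A2 (shift 1.07, 0.596 to 1.95) and of COL6A3 to COL6A1 (0.872, 0.483 to 1.55). The interval of COL11A1 to COL11A2 (1.17, 0.316 to 5.06) also includes 1. It rests on only 13 counts of COL11A2 in LAC and 6 in CG. The type V chains stood apart: the count ratio of COL5A1 to COL5A2 was 0.0607 in LAC and 1.07 in CG, a shift of 0.0569 (0.0383 to 0.0843). The count ratio of COL4A3 to COL4A4 was 0.490 in LAC and 0.313 in CG, a shift of 1.56 (1.35 to 1.81). The shifts of COL9A1 to COL9A2 (0.265, 0.120 to 0.586) and of COL8A1 to COL8A2 (3.18, 1.22 to 7.45) rest on low counts, with 30 counts of COL9A1 in LAC and 19 counts of COL8A1 in CG.

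The intron fragments were read in all 3 libraries from the long non-coding table, in the authors' FPKM, where 9 of the 10 are listed as intronic loci. Between LAC and CG, 2 of the 9 were higher by at least 1 on log2(FPKM + 1) and 1 was lower, against 15.0% and 5.15% of all intronic loci with at least 1 FPKM. Between HAC and CG, 1 was higher and 1 was lower, against 6.06% and 4.38%. With 9 loci, these counts are too few to read against the background. In all, 4 of the 9 loci spanned at least 1 on this scale over the 3 libraries.

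**Figure D3:**
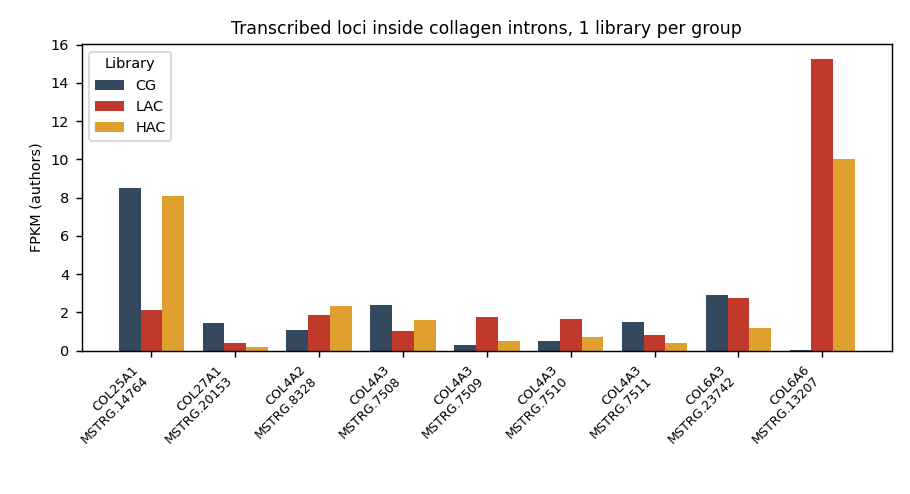
Authors' FPKM of the 9 transcribed loci inside collagen introns in CG (under 3 ppm of ammonia), LAC (10 ppm) and HAC (30 ppm), 1 library each, with the host gene above the locus name. The locus in COL6A6 is high in LAC and HAC and near 0 in CG, and the locus in COL25A1 is low in LAC.

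The locus MSTRG.13207 inside COL6A6 differed most. It lies at NC_013682.1, 908938 to 909278, is 341 bases long, begins 25170 bases from the start of its host and has no strand in the files. It measured 0.06 FPKM for CG, 15.25 for LAC and 10.01 for HAC, so that both ammonia libraries were high. In the gene table it had 399 counts in LAC and 2 in CG, a CPM ratio of 233 (41.4 to 9256). The CG count is under the floor of 6 counts. The gene table gives the locus 1.32 FPKM in LAC and 0.01 in CG, the LAC value far below that of the long non-coding table. The cause of this mismatch was not tested. The host COL6A6 differed by -0.87. The fragment and the host thus went in opposite directions.

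The locus MSTRG.14764 inside COL25A1 (NC_013683.1, 40232405 to 40233355, 2340 bases from the host's start) measured 8.50 FPKM for CG, 2.15 for LAC and 8.10 for HAC. Only LAC was low, and its host COL25A1 was higher there. The locus MSTRG.20153 inside COL27A1 measured 1.45 FPKM for CG, 0.41 for LAC and 0.20 for HAC, with a HAC minus CG difference of -1.03. These values rest on 30 counts in CG, 8 in LAC and, from its coverage, 4.05 in HAC, under the floor of 6 counts, so no order is read between LAC and HAC. Inside COL4A3 there were 4 loci, and they did not move together. MSTRG.7509 (0.32 FPKM for CG, 1.76 for LAC, 0.52 for HAC) and MSTRG.7510 (0.49 for CG, 1.64 for LAC, 0.70 for HAC) were highest in LAC. MSTRG.7508 was highest in CG (2.41 FPKM for CG, 1.01 for LAC, 1.63 for HAC), as was MSTRG.7511 (1.48 for CG, 0.81 for LAC, 0.38 for HAC). MSTRG.8328, the one locus with a strand, runs antisense to COL4A2 and measured 1.06 FPKM for CG, 1.89 for LAC and 2.33 for HAC. MSTRG.23742 inside COL6A3 measured 2.91 FPKM for CG, 2.77 for LAC and 1.17 for HAC. The tenth fragment, MSTRG.12508 inside COL24A1, is in the gene table alone, with 7.61 CPM in LAC and 6.68 CPM in CG, while COL24A1 itself was lower.

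Genes that make, export, trim, link and bind collagen were read from lists chosen with earlier results of these data known, and their counts can be read against 1.89% of coding genes higher and 11.0% lower. The chain modification and folding list holds enzymes that hydroxylate the chains and proteins that help them fold. Of its 18 matched genes 1 was higher and 0 were lower, with a median of 0.13. The higher gene was CREB3L1, a membrane-bound transcription factor for secretory genes, with 3.93 CPM in LAC and 1.36 CPM in CG, 2.88-fold higher (2.09 to 4.05). The most abundant, P4HA1, a prolyl hydroxylase subunit gene, had 299 CPM in LAC and 386 CPM in CG. PLOD2, a lysyl hydroxylase gene, had 250 CPM in LAC and 257 CPM in CG, and P3H3, a prolyl hydroxylase family gene, had 41.7 CPM in LAC and 24.1 CPM in CG, below the rule.

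The procollagen export list, genes that carry procollagen out of the endoplasmic reticulum, had 0 higher and 0 lower of 11, with a median of 0.06. TMED2, a cargo receptor gene of early secretory vesicles, had 582 CPM in LAC and 543 CPM in CG, and SEC24D, a coat protein gene, had 271 CPM in LAC and 258 CPM in CG. MIA3, whose product packages procollagen, had 92.3 CPM in LAC and 119 CPM in CG, and TRAPPC2, a tethering factor gene, had 21.9 CPM in LAC and 31.5 CPM in CG. The named members that differed most were thus below 0.

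The propeptide cleavage list, proteases and enhancers that trim the ends of procollagen, had 0 higher and 4 lower of 10, against 11.0% of coding genes lower, with 4 members above 0 and a median of -0.49. Its summed level was 209 CPM in LAC against 446 CPM in CG. Without PCOLCE2, left out after seeing the data, the sum was 134 CPM in LAC against 155 CPM in CG, a ratio of 0.869 (0.836 to 0.903), and the median was -0.06. PCOLCE2, which encodes an enhancer of the procollagen C-proteinase, had 74.9 CPM in LAC and 291 CPM in CG, 3.89-fold lower (3.73 to 4.06). The other lower members encode proteases: MEP1A had 1.41 CPM in LAC and 5.52 CPM in CG, MEP1B had 3.36 CPM in LAC and 11.3 CPM in CG, and TLL1 had 1.02 CPM in LAC and 3.60 CPM in CG. BMP1, which encodes the procollagen C-proteinase itself, had 64.9 CPM in LAC and 57.3 CPM in CG.

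The cross-linking list had 0 higher and 0 lower of 6, with a median of 0.28. LOX, the gene of lysyl oxidase, had 98.1 CPM in LAC and 59.7 CPM in CG, a difference of 0.71. Its relative LOXL2 had 74.6 CPM in LAC and 71.6 CPM in CG, and LOXL3 had 53.5 CPM in LAC and 36.3 CPM in CG. The receptor list had 2 higher and 2 lower of 9, against 1.89% of coding genes higher and 11.0% lower, with a median of -0.31 but a slightly higher sum, 1216 CPM in LAC against 1154 CPM in CG. ITGA1, an integrin gene for a collagen-binding subunit, had 247 CPM in LAC and 123 CPM in CG, a difference of 1.01 that falls below the rule with median-of-ratios or library-size scaling. DDR2, a receptor kinase gene for fibrillar collagen, had 19.4 CPM in LAC and 8.75 CPM in CG, 2.22-fold higher (1.95 to 2.54). ITGA2, the gene of another collagen-binding integrin subunit, had 17.6 CPM in LAC and 77.0 CPM in CG, 4.39-fold lower (4.02 to 4.80). ADGRG6, an adhesion receptor gene, had 3.48 CPM in LAC and 14.0 CPM in CG, 4.02-fold lower (3.30 to 4.95). The abundant ITGB1, the shared integrin beta subunit gene, had 606 CPM in LAC and 589 CPM in CG, and DDR1, another collagen receptor kinase gene, had 228 CPM in LAC and 294 CPM in CG.

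**Figure D4:**
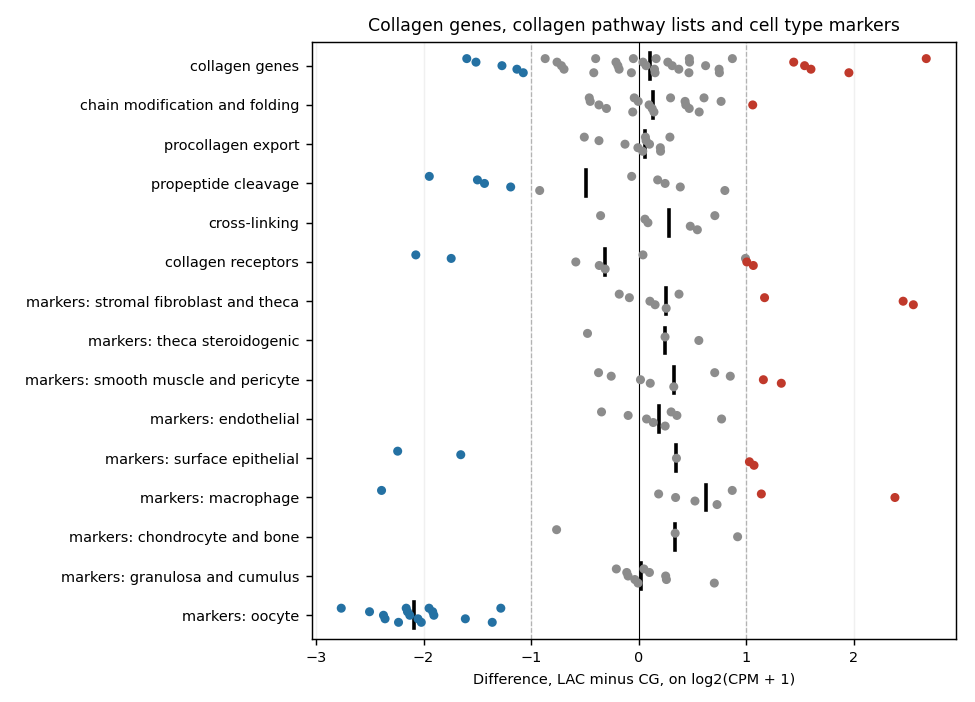
Difference between LAC and CG on log2(CPM + 1) for each gene with at least 10 counts, for the collagen genes, the lists of the collagen pathway and the markers of cell types; black bars are medians, and red and blue points passed the size rule as higher and lower (dashed lines at 1 and -1). The 3 red points of the fibroblast list lie at 2.55 (DCN), 2.46 (POSTN) and 1.17 (PDGFRB). In the macrophage list MRC1 lies at 2.38 and MSR1 at -2.39. All 16 oocyte markers lie left of -1.

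Marker lists of other cell types differed in how many members passed the size rule, where 1.89% of coding genes were higher and 11.0% lower. Of 9 stromal fibroblast and theca markers with enough counts, 3 were higher (DCN, POSTN and PDGFRB), 0 were lower and 6 stayed within the rule, with a median of 0.26 and DPT at 0 in both. POSTN, the gene of the matrix protein periostin, had 59.5 CPM in LAC and 9.99 CPM in CG, while OGN, the gene of osteoglycin, had 106 CPM in LAC and 98.6 CPM in CG. Of 9 smooth muscle and pericyte markers 2 were higher, DES and LMOD1, and 7 stayed within the rule, with a median of 0.33. They summed to 91.5 CPM in LAC and 84.6 CPM in CG. Of these, MYH11 had 36.3 CPM in LAC and 47.2 CPM in CG, and TAGLN had 28.7 CPM in LAC and 15.4 CPM in CG. Of 8 endothelial markers 0 passed the rule, with a median of 0.19 and a sum of 5.21 CPM in LAC and 3.66 CPM in CG. VWF had 1.35 CPM in LAC and 0.909 CPM in CG, and PECAM1 had 1.33 CPM in LAC and 0.960 CPM in CG. Of 6 theca steroidogenic markers listed only 3 were matched, and CYP17A1, HSD3B1 and INSL3 were not. Of these 3 matched markers 0 passed, with a median of 0.25 and a sum of 115 CPM in LAC and 115 CPM in CG. STAR had 48.7 CPM in LAC and 68.0 CPM in CG, and LHCGR had 50.8 CPM in LAC and 34.2 CPM in CG.

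Of 5 surface epithelial markers 2 were higher and 2 lower, and 3 lay above 0, with a median of 0.35 and KRT7 at 0 in both. They summed to 35.3 CPM in LAC and 90.3 CPM in CG. The higher markers were LHX9, with 11.1 CPM in LAC and 4.93 CPM in CG, and KRT18, with 2.59 CPM in LAC and 0.707 CPM in CG. The lower markers were CDH1, with 12.8 CPM in LAC and 64.1 CPM in CG, and EPCAM, with 4.95 CPM in LAC and 17.7 CPM in CG. Of 8 macrophage markers 2 were higher (CD163 and MRC1) and 1 lower (MSR1), and 7 lay above 0, with a median of 0.63. Their sum was 27.6 CPM in LAC and 53.5 CPM in CG, and its direction follows MSR1, the 1 member below 0. MSR1 had 8.20 CPM in LAC and 47.3 CPM in CG, and MRC1 had 8.04 CPM in LAC and 0.733 CPM in CG. The cartilage and bone list had 0 of 3 past the rule, 335 CPM in LAC and 544 CPM in CG, nearly all of it SPP1 (312 CPM in LAC, 531 CPM in CG). SOX9 had 17.7 CPM in LAC and 8.90 CPM in CG, and BGLAP, MATN1 and SP7 were at 0 in both. The part of these cells, and of the oocyte, in the collagen differences was not tested. Loci outside coding genes took 34.2% of counts in LAC and 24.6% in CG, and spliced reads made up 16.23% of valid reads in the mapping block labelled LAC and 22.01% in that of CG. Their part in the differences was not tested either.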

How the data were processed

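Each deposited file stacks statistics blocks, a gene table and a long non-coding table. The gene table holds the authors' estimated counts and FPKM per locus, and the long non-coding table holds read coverage as deposited by the authors and FPKM per transcript, per the file headers. Per the labels' protocols, ribosomal RNA was removed and dUTP marked the second strand, and fastp, HISAT2 and the build OryCun2.0 are named in the submitters' processing notes. The assembler and counter are not given in the sources used here.

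Collagen genes were the loci with a matching name and a RefSeq messenger RNA. Counts were scaled to CPM with TMM factors (trimmed mean of M values, 30% of ratios and 5% of levels trimmed; 0.991 for LAC, 1.01 for CG), computed from the formula in Python 3.11.15 with pandas 2.3.3, numpy 2.4.6 and SciPy 1.17.1, and tested on simulated data. Ratios have no pseudocount. Their 95% Clopper-Pearson intervals rest on halved counts, since a count equals coverage times length over 75 bases. They cover counting error alone. The shifts of chain ratios have conditional exact odds-ratio intervals on halved counts. Those of COL4A1 to COL4A2 and of COL11A1 to COL11A2 have a normal approximation instead. The floor is 3 reads, or 6 counts. No test was made, as there is 1 library per group. Long non-coding FPKM was used as deposited, at a minimum of 1 FPKM. The 2 per-sample columns of the repeated gene table were left out.

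Named are all collagen genes and, of each list, members past the size rule or with the highest level or largest difference. Oocyte markers and those of other cell types are named in part. The planned ratio of COL4A5 to COL4A6 was not computed, since COL4A5 shares its locus. Members, classes and lists were chosen with earlier results of these data known, and no sequence is printed.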

Additional observations from a re-analysis of the deposited data

Results flagged for a closer look

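The locus that holds COL4A5, which encodes a chain that assembles with those of COL4A3 and COL4A4 or of COL4A6, lies outside the name rule because it is merged with LOC100338689 (NC_013690.1, 57092119 to 57357817, plus strand, OryCun2.0). It is listed here as signal in data that the comparisons do not use. It had 45.8 CPM in LAC and 29.9 CPM in CG, a ratio of 1.53 (95% counting interval 1.42 to 1.65) and a difference of 0.60, below the size rule. Its neighbour COL4A6, head to head at 1367 bases, differed by -0.07. The counts of COL4A5 and LOC100338689 cannot be told apart.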

How the results depend on the processing

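The 10 genes past the size rule were called in the same direction with median-of-ratios, library-size and coding-gene TMM scaling, and 0 of them changed sign in any setting tried. Coding-gene scaling added COL12A1 to the higher genes (6), where 3.16% of coding genes were higher and 9.81% lower. The log2 ratio of the summed collagen level, 0.51, was 0.48 with median-of-ratios factors, 0.48 with library size, 0.68 with coding-gene factors, 0.41 with the deposited FPKM and 0.54 without COL4A1, the most abundant gene. With the deposited FPKM, 3 genes were higher and 2 lower, against 1.19% and 9.51% of coding genes. The higher genes numbered 7 and the lower genes 8 at a pseudocount of 0.1, where 6.28% of coding genes were higher and 18.3% lower. At a pseudocount of 5 they numbered 3 and 1, where 0.746% of coding genes were higher and 6.06% lower. A minimum of 5 CPM gave 5 higher and 2 lower of 16, since fewer genes were tested, against 1.98% and 12.9% of coding genes. A size rule of 0.5 gave 9 higher and 9 lower of 36, where 7.81% of coding genes were higher and 25.4% lower. The share of lower collagen genes was thus near the background there. A rule of 2 gave 1 higher, COL5A2, and 0 lower, against 0.273% and 2.15% of coding genes. With all matched loci, an alternative added after seeing the data, 6 were higher and 6 lower of 46. Of 29030 loci tested alike, 1227 were higher and 2470 lower. Of 216 recomputed values of single genes, 68 lay outside the counting interval of the gene's ratio. The values carry a pseudocount and the interval does not, so a low gene can lie outside it by that mismatch alone. The count of 68 is therefore not a measure of how far processing moved the values. Genes past the size rule did not change sign, but 3 values near 0 did: COL4A6 (0.08 against -0.07) and COL8A2 (0.07 against -0.05) with coding-gene factors, and COL22A1 (-0.02 against 0.04) with the deposited FPKM. The count of intron loci that spanned 1 or more, 4, was 9 with a pseudocount of 0.1. The cause of these shifts was not tested. No paired analysis was possible because each group has 1 library, and leaving out a replicate was likewise not possible. Depth limits the 25 genes under 5 CPM most: a ratio there can rest on a handful of reads.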

Other observations

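Apart from the named collagen genes, 31 loci that carry only a LOC number are described in the files as collagen chains. They were low throughout: 14 of them were at 0 counts in both libraries, and the highest reached 0.987 CPM in LAC and 0.834 CPM in CG.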
